A study of Rattus norvegicus with 8 samples.

Results

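The transcripts described here encode 9 enzymes of mitochondrial fatty acid oxidation: Cpt1a, Cpt2, Acadvl, Acadl, Acadm, Acads, Hadha, Hadhb and Acaa2. They were chosen by gene symbol from 4736 genes that the array's annotation matches to a probe set of their own. All 9 were on the array, with 12 of 7006 such probe sets, and none of the 9 is an enzyme of ketone body synthesis, so the results concern the oxidation steps that feed it. Liver RNA came from 4 rats given D3T and 4 rats given the vehicle alone, all male Fischer 344 rats on AIN 76A chow, and each rat had its own Affymetrix rat expression array of the U34 set. D3T, or 3H-1,2-dithiole-3-thione, was given by gavage at 0.3 mmol per kg body weight, dissolved in saturated sucrose, on days 1, 3 and 5. The vehicle group was gavaged with 0.2 ml of the sucrose solution. The dosing days are labelled for 3 of the 4 vehicle rats and are not named for vehicle replicate 2. Age is labelled 6 in every rat with no unit, and the interval from the last dose to the collection of liver is not given in the sources used here.

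In liver mitochondria, long-chain fatty acids enter as carnitine esters through Cpt1a on the outer membrane and Cpt2 on the inner membrane. Each turn of the oxidation spiral then takes a dehydrogenation by an acyl-CoA dehydrogenase chosen by chain length, a hydration, another dehydrogenation and a thiolytic cleavage that releases acetyl-CoA, which the liver turns into ketone bodies during fasting. For long chains the last 3 of these steps are carried out by the trifunctional protein, built from the products of Hadha and Hadhb. D3T belongs to the dithiolethiones, sulfur heterocycles best known as inducers of detoxification enzymes, which act through Nfe2l2, a transcription factor of the response to oxidants and electrophiles. The question asked of these genes is whether their transcripts differed between D3T and vehicle livers.

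The RefSeq annotation of the rat assembly GRCr8 places the members on 8 chromosomes, with Hadha and Hadhb as neighbours on chromosome 6. Hadhb lies at chr6:31873404-31907557 and Hadha at chr6:31907801-31947434, they point away from each other, and 243 bases separate their annotated edges. This stretch is shown because both subunits of the trifunctional protein start from it, together with the bases just upstream of Acadm (chr2:245518693-245542864) and Acadvl (chr10:55231558-55236786), the members whose windows held a match in the motif search described next. The Acadvl stretch is the 169 bases of its window that lie outside the annotated gene, since the outermost edge of the gene lies upstream of the start site used for the window. Each sequence is written 5′ to 3′ on the strand named, in lower case, with motif matches in capitals.
Hadhb to Hadha, chr6:31907558-31907800, plus strand: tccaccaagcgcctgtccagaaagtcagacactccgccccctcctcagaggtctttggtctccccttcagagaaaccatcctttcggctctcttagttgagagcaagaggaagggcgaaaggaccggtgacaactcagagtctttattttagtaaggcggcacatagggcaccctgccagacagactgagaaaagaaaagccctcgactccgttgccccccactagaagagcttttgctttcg
Acadm upstream, chr2:245542865-245543114, minus strand, TGACGTCA in capitals: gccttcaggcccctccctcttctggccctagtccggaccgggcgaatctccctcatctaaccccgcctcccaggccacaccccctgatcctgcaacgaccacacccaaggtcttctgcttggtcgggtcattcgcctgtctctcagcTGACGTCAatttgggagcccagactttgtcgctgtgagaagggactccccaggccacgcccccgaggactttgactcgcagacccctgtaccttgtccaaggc
Acadvl upstream, chr10:55236787-55236955, minus strand, AGGTCA in capitals: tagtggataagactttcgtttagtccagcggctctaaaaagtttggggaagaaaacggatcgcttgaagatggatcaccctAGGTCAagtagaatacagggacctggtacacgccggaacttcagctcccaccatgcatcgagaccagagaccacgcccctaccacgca

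The start-site windows of 7 members, 250 bases before the start each and read on both strands, were searched for letters that known regulators of these pathways bind. AGGTCA, the element of nuclear receptors such as the fatty acid receptor encoded by Ppara, was found upstream of Acadvl alone of the 7, and in 14.1% of 33469 windows of the same length. Its direct repeat with a spacer of 1 base, AGGTCANAGGTCA, was found in none of the 7 and in 0.0508% of all windows. The core of the antioxidant response element, TGACNNNGC, which can share letters with AGGTCA read on the opposite strand, was found in none of the 7 and in 10.1% of all windows. The cyclic AMP element TGACGTCA, added to the search after the sequences were read, was found upstream of Acadm alone and in 1.59% of all windows. A match to these letters is not evidence of binding, and the windows hold only the bases next to the start.

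D3T livers had lower transcripts of 2 of the acyl-CoA dehydrogenases, Acadvl and Acadl, and higher transcripts of the thiolase gene Acaa2, while those of the carnitine transferases and of the trifunctional protein did not pass the test. Acadvl was 1.46-fold lower, Acadl 1.49-fold lower and Acaa2 1.48-fold higher. Of the 12 member probe sets, 11 were bright enough to be tested, covering all 9 genes, and 3 passed limma's test at a Benjamini-Hochberg adjusted p under 0.05, 1 higher and 2 lower. Over all 5244 probe sets tested, 560 passed (10.7%), 4.2% higher and 6.48% lower. The 3 of 11 is a small count, and its share was not tested against that background. All 11 member probe sets were also among the brightest 30%. With only those brightest probe sets tested, 588 of 2622 passed, and 4 of the 11 member probe sets. The D3T and vehicle arrays did not overlap for 3 of the 11 member probe sets, Acadvl, Acadm and Acaa2, which compares with 19.2% of all tested probe sets. By 1 probe set per gene, the median log2 fold change of the 9 members was -0.079, and that of all 3150 genes tested was 0.026. Negative values are lower after D3T throughout. In bulk liver, fewer cells of a type and less RNA per cell cannot be told apart.

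**Figure D1:**
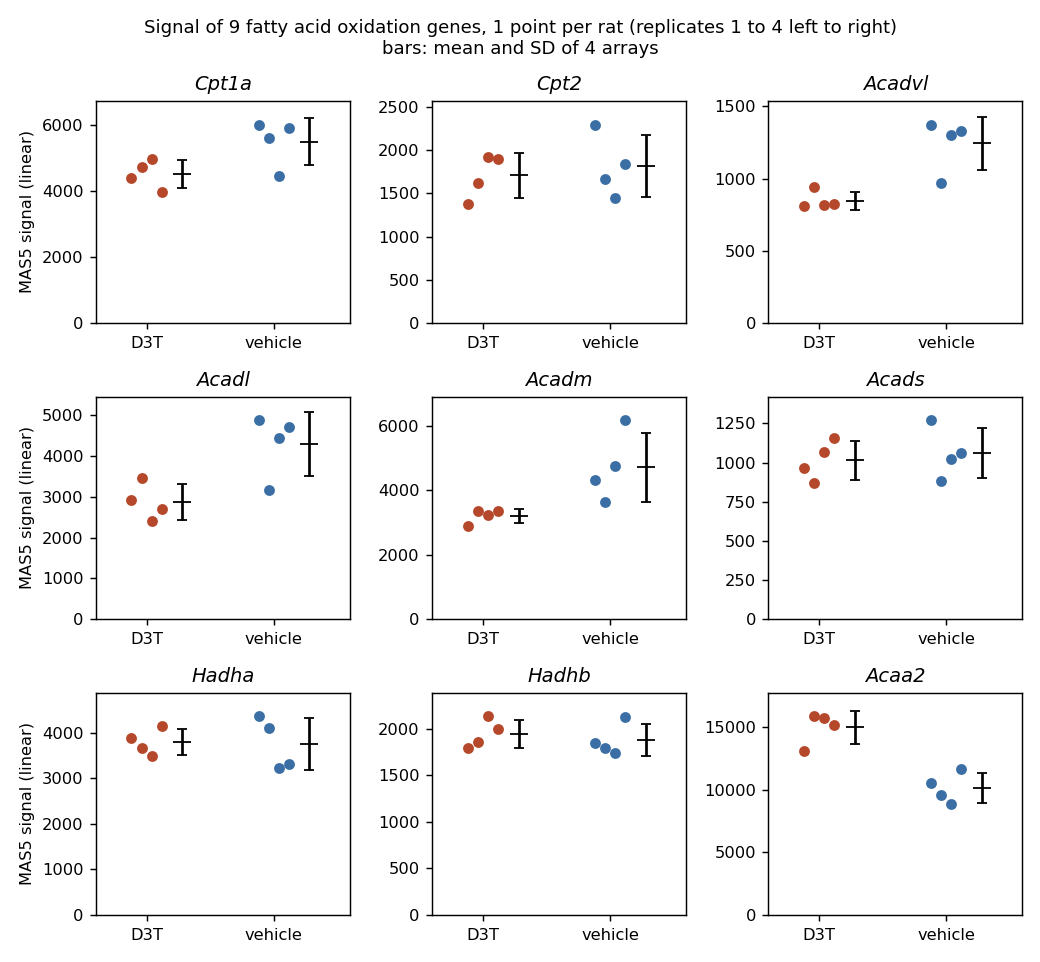
Linear MAS5 signal of the 9 genes in each rat, D3T left and vehicle right in every panel, with the brightest tested probe set of each gene; bars give the mean and SD of 4 arrays. The D3T points lie below all vehicle points for Acadvl and Acadm and above them for Acaa2, and the groups overlap in the other 6 panels.

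Among the dehydrogenases that open each turn of the spiral, Acadvl acts on the longest chains and sits on the inner mitochondrial membrane. Its signal was 807.3, 941.3, 816.9 and 826.1 in D3T replicates 1 to 4, and 1374, 971.7, 1301 and 1332 in vehicle replicates 1 to 4. Every D3T array was below every vehicle array, although the highest D3T rat and the lowest vehicle rat, both replicate 2, were close to each other. The log2 fold change was -0.54 ± 0.14 (SE), with a 95% interval from -0.85 to -0.23 and a limma adjusted p of 0.0343.

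Acadl, the dehydrogenase of long chains in rodent liver, is encoded at chr9:75783689-75822077. Its signal on the bright probe set was 2924, 3452, 2414 and 2694 in D3T livers and 4873, 3165, 4439 and 4711 in vehicle livers. D3T replicate 2 was above vehicle replicate 2, and the remaining 3 D3T rats were below all vehicle rats. The log2 fold change was -0.57 ± 0.16 (SE), with an interval from -0.93 to -0.22 and a limma adjusted p of 0.0471. The name of this probe set marks sequence shared with other transcripts. A dim second probe set of Acadl averaged 25.4 ± 7.44 in D3T livers and 12.5 ± 5.87 in vehicle livers (SD, n = 4 each), with 5 of 8 arrays at the floor of 20.3 below which values were not distinguished, and it was not tested.

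Acadm encodes the medium-chain dehydrogenase. Its signal was 2878, 3353, 3224 and 3353 in D3T livers and 4323, 3618, 4758 and 6158 in vehicle livers. All D3T values lay below all vehicle values, and the SD was 224.6 in D3T livers and 1071 in vehicle livers. The log2 fold change was -0.53 ± 0.15 (SE). With an interval from -0.87 to -0.19, Acadm missed the threshold by a small margin (limma adjusted p = 0.0506).

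Acads, the short-chain dehydrogenase, averaged 1014 ± 126 in D3T livers and 1060 ± 159 in vehicle livers (SD, n = 4 each), and the groups overlapped. Its log2 fold change of -0.059 had an interval from -0.38 to 0.27, which the data do not narrow further (limma adjusted p = 0.807). Whether the longer-chain dehydrogenases changed more than Acads was tested within arrays, where scaling cancels, by the difference of the 2 log2 signals. The change relative to Acads was -0.48 for Acadvl, -0.51 for Acadl and -0.47 for Acadm. Two-sided exact permutation tests, with all 70 possible assignments of the arrays to groups, gave p = 0.0571, 0.0857 and 0.0571 in that order, and adjusted over 4 such tests p = 0.0762, 0.0857 and 0.0762, so unequal change among the dehydrogenases was not established. These 4 pairs were chosen after the values were seen, and the smallest p such a test can give is 0.0286.

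**Figure D2:**
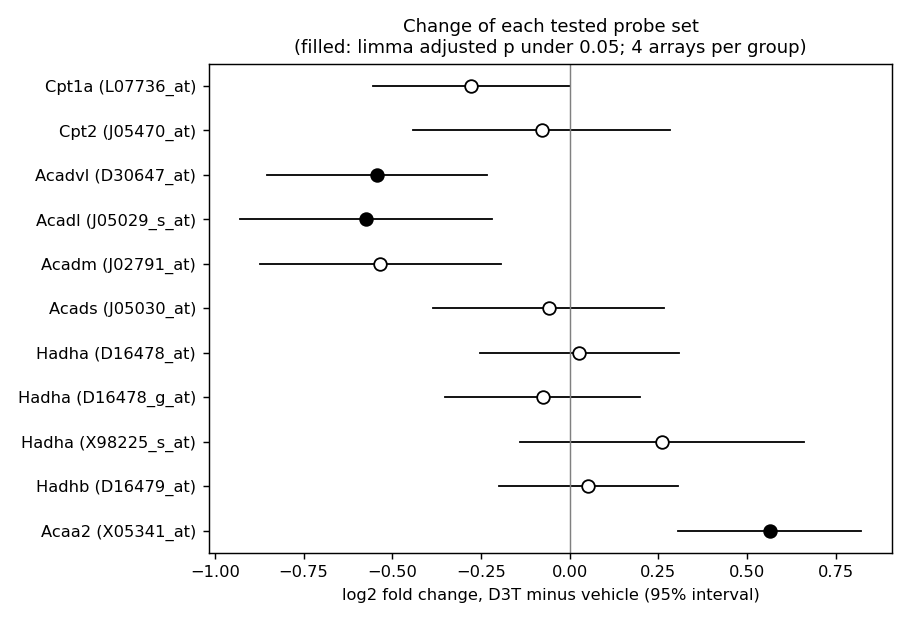
Fitted log2 fold change, D3T minus vehicle, of the 11 tested probe sets with 95% intervals, in the order of the pathway from carnitine transfer at the top to thiolysis at the bottom; filled points passed an adjusted p of 0.05. Acadvl and Acadl lie on the negative side and Acaa2 on the positive side, and Acadm lies beside the first pair with an open point (adjusted p = 0.0506).

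The trifunctional protein, which hydrates, dehydrogenates and cleaves long-chain intermediates, was measured by 3 probe sets of its alpha subunit gene Hadha and by 1 of its beta subunit gene Hadhb. None of these 4 passed in limma, and none had an unadjusted p under 0.05. The brightest Hadha probe set read 3889, 3667, 3490 and 4147 in D3T livers and 4354, 4108, 3223 and 3315 in vehicle livers, with a log2 fold change of 0.028 and an interval from -0.25 to 0.31. The other Hadha probe sets differed in sign, at -0.076 and 0.26. Hadhb read 1793, 1854, 2133 and 1995 in D3T livers and 1843, 1793, 1740 and 2127 in vehicle livers. Its log2 fold change was 0.052, with an interval from -0.20 to 0.30 (limma adjusted p = 0.780). Both neighbours on chromosome 6 thus had overlapping groups and intervals that contain 0.

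Acaa2 encodes a ketoacyl-CoA thiolase of the matrix that cleaves shorter and medium chains into acetyl-CoA, and it lies at chr18:70620310-70648417. Its signal was 13063, 15834, 15738 and 15162 in D3T livers and 10527, 9526, 8852 and 11645 in vehicle livers. All 4 D3T values were above all 4 vehicle values. The log2 fold change was 0.56 ± 0.12 (SE), with an interval from 0.30 to 0.82 and a limma adjusted p of 0.0157. Set against Hadhb, whose product holds the long-chain thiolase activity, Acaa2 changed by 0.51 more on the log2 scale, and by 0.31 under quantile normalization. The within-array difference of all 4 D3T rats exceeded that of all 4 vehicle rats, with an exact permutation p of 0.0286, the smallest possible, and p = 0.0762 adjusted over the 4 pairs.

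Cpt1a, the carnitine transferase that limits entry of long chains into the mitochondrion, read 4405, 4736, 4977 and 3994 in D3T livers and 6025, 5611, 4473 and 5914 in vehicle livers. Vehicle replicate 3 lay among the D3T values and the other 3 vehicle rats lay above them. The log2 fold change was -0.28 ± 0.13 (SE), with an interval from -0.55 to 0.00051, and did not pass (limma adjusted p = 0.171). Cpt2, which returns the acyl group to CoA on the matrix side, averaged 1707 ± 255 in D3T livers and 1812 ± 358 in vehicle livers (SD, n = 4 each), and its interval ran from -0.44 to 0.28 (limma adjusted p = 0.772).

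How far these calls depended on single rats differed between the genes. Acaa2 passed in 8 of 8 fits that left out 1 array, with limma adjusted p from 0.0197 to 0.0495. Acadvl and Acadl each passed in 2 of the 8, those without D3T replicate 2 or without vehicle replicate 2, and their adjusted p reached 0.0951 and 0.116. Acadm passed in 1 of the 8, without vehicle replicate 2 (adjusted p = 0.0197). In those 8 fits the log2 fold change ran from -0.66 to -0.49 for Acadvl, from -0.71 to -0.49 for Acadl, from -0.65 to -0.40 for Acadm and from 0.50 to 0.63 for Acaa2. Vehicle replicate 2, the rat whose label names no dosing days, was the lowest vehicle rat for Acadvl, Acadl, Acadm and Acads, or 4 of the 11 member probe sets. Vehicle replicate 3 was the lowest for Cpt1a, Cpt2, Hadhb, Acaa2 and 2 of the Hadha probe sets. Without vehicle replicate 2 the log2 fold changes of Acadvl, Acadl and Acadm were -0.66, -0.71 and -0.65 (in the order named, limma adjusted p = 0.0114, 0.0128 and 0.0197). The call of Acadvl was also lost under quantile normalization (adjusted p = 0.0603), and those of Acadvl (0.0618) and Acadl (0.119) with no filter on low signal. With no intensity trend in the variance model none of the 3 passed (adjusted p = 0.0540 for Acaa2, 0.0697 for Acadvl and 0.0973 for Acadl).

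The ratio of 3' to 5' actin signal, a measure of RNA integrity, averaged lower in D3T arrays, and the groups overlapped. On the log2 scale it ran from 0.23 to 0.55 in D3T arrays and from 0.53 to 0.67 in vehicle arrays, a difference of -0.22 (exact permutation p = 0.0571). The same ratio for Gapdh averaged 0.65 ± 0.24 in D3T arrays and 0.90 ± 0.16 in vehicle arrays (SD, n = 4 each), a difference of -0.25 with overlapping groups (exact permutation p = 0.114). With the actin ratio as a covariate no member passed in limma, 1 of 11 had an unadjusted p under 0.05, and 35 probe sets of 5244 passed in all. The fitted log2 fold changes under the covariate were -0.51 for Acadvl, -0.58 for Acadl, -0.52 for Acadm and 0.70 for Acaa2, against -0.54, -0.57, -0.53 and 0.56 without it, while the SE of Acadvl was 0.23 with the covariate and 0.14 without it. For Cpt1a the fitted value was 0.025 with the covariate, against -0.28 without it.

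**Figure D3:**
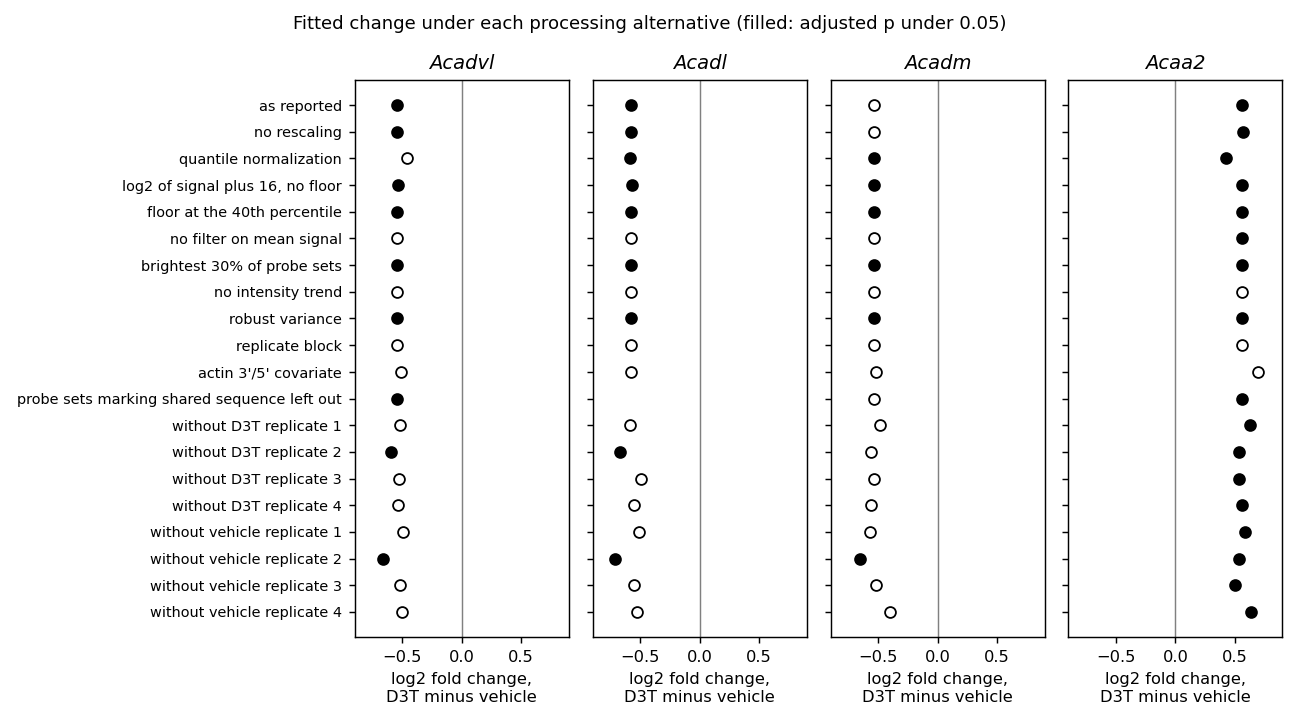
Fitted log2 fold change, D3T minus vehicle, of Acadvl, Acadl, Acadm and Acaa2 under the reported setting and up to 19 alternatives, with filled points where the adjusted p was under 0.05. Every point keeps its sign, Acaa2 is filled without any single array, and the points of the dehydrogenases are open in most such fits.

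The enzymes and transporters around the members were read from 6 lists, by the brightest tested probe set of each gene, with 3.71% of 3150 genes higher and 5.84% lower as the background. That background includes dimmer genes. With only the brightest 30% of probe sets tested, 9 of 40 list genes passed, beside 588 of 2622 probe sets. Among 11 tested genes for activation, uptake and transport of fatty acids, 2 were lower and none higher, and the list median was -0.12. Dbi, the acyl-CoA binding protein, averaged 4048 ± 965 in D3T livers and 7108 ± 1024 in vehicle livers (SD, n = 4 each; limma adjusted p = 0.0149). Acsl5, an acyl-CoA synthetase of liver, averaged 2815 ± 540 in D3T livers and 4227 ± 357 in vehicle livers (limma adjusted p = 0.0280), and its second probe set was also lower (log2 fold change -0.78, adjusted p = 0.0349). Dbi passed in 8 of 8 fits without 1 array. Its call was lost when all probe sets were tested without a filter (adjusted p = 0.0631). The actin covariate also ended it, with a log2 fold change of -0.50 (adjusted p = 0.386) against -0.83 without that term. Acsl5 did not pass without D3T replicate 3 or vehicle replicate 1, 3 or 4 (adjusted p from 0.0592 to 0.0752). The brightest gene of the list, the fatty acid binding protein gene Fabp1, averaged 22161 ± 3749 in D3T livers and 24238 ± 3433 in vehicle livers (adjusted p = 0.557). Its log2 fold change was -0.13, and it was -0.42 with a limma adjusted p of 0.0192 under quantile normalization.

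In the rest of the mitochondrial spiral, 1 of 8 tested genes was higher and none lower, with a median of -0.022. It was Echs1, the hydratase of short and medium chains, which averaged 3221 ± 950 in D3T livers and 2027 ± 222 in vehicle livers (SD, n = 4 each), with groups that did not overlap and a limma adjusted p of 0.0497. Echs1 did not pass without D3T replicate 1, 2 or 3 or without vehicle replicate 1, 3 or 4 (adjusted p from 0.0571 to 0.132). Eci1, the isomerase needed for unsaturated chains, averaged 4087 ± 1452 in D3T livers and 4146 ± 966 in vehicle livers (adjusted p = 0.892), and its sign turned in 4 fits without 1 array.

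**Figure D4:**
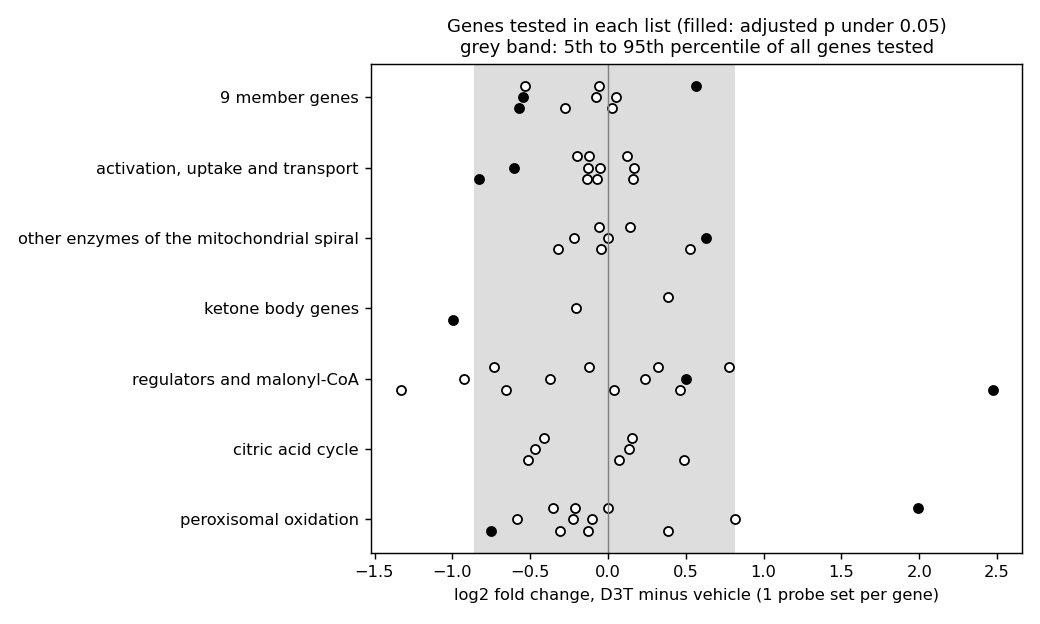
Log2 fold change, D3T minus vehicle, of each tested gene in the member set and in 6 lists around it, 1 probe set per gene; filled points passed an adjusted p of 0.05, and the grey band spans -0.86 to 0.82, the 5th to 95th percentile of 3150 genes. All 9 members lie inside the band, while Rxra and Acaa1b on the positive side and Slc16a1 on the negative side lie outside it and passed.

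Of 6 listed ketone body genes 3 were matched to a probe set and tested, and 1 was lower. This was Slc16a1, a monocarboxylate transporter that carries lactate and ketone bodies across the plasma membrane, which averaged 495.5 ± 140.9 in D3T livers and 982.1 ± 291.2 in vehicle livers (SD, n = 4 each; limma adjusted p = 0.0409). Its second probe set was also lower, with a log2 fold change of -0.995 and an adjusted p of 0.0139, while the first passed in 1 of 8 fits without 1 array, that without vehicle replicate 2, and in the others its adjusted p ran from 0.0535 to 0.114. Acat1, the mitochondrial acetoacetyl-CoA thiolase, had a log2 fold change of 0.39 ± 0.20 (SE) and did not pass (adjusted p = 0.225), with 1 of its 2 other probe sets of opposite sign.

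Among 13 tested regulators of the pathway 2 were higher and none lower, and the list median was 0.037. Of the 13 log2 fold changes 7 were positive and 6 negative. The most negative was -1.33, which did not pass (limma adjusted p = 0.0915). In limma 6 of the 13 had an unadjusted p under 0.05, but no share of all genes under that limit is given for comparison. Hnf4a, a nuclear receptor of hepatocytes, averaged 1075 ± 114 in D3T livers and 762.6 ± 104.1 in vehicle livers (SD, n = 4 each; limma adjusted p = 0.0477), a call that none of 8 fits without 1 array kept (adjusted p from 0.0527 to 0.116). Its log2 fold change was 0.31 with the actin covariate and 0.50 without it. Rxra, the partner receptor of Ppara, averaged 578.6 ± 126.1 in D3T livers and 121.7 ± 76.0 in vehicle livers. Its log2 fold change was 2.47 ± 0.43 (SE; limma adjusted p = 0.00725). Pdk2, a kinase that restrains the conversion of pyruvate to acetyl-CoA in mitochondria, averaged 2864 ± 502 in D3T livers and 2440 ± 513 in vehicle livers (adjusted p = 0.380).

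No gene passed in limma among 7 tested genes of the citric acid cycle, where the median was 0.073, with 4 positive and 3 negative changes. An unadjusted p under 0.05 was found for 3, all lower (log2 fold change from -0.51 to -0.41). No share of all genes under that limit is given for comparison. The brightest gene of the cycle, the matrix malate dehydrogenase gene Mdh2, averaged 3769 ± 983 in D3T livers and 5086 ± 330 in vehicle livers (SD, n = 4 each; limma adjusted p = 0.108). The second Mdh2 probe set averaged 2714 in D3T livers and 2748 in vehicle livers, with a log2 fold change of -0.022 (adjusted p = 0.902). In the list for peroxisomal oxidation, a pathway that shortens very long chains and shares the receptor Ppara, 1 of 12 tested genes was higher and 1 lower. The list median was -0.17. The thiolase gene Acaa1b was higher, with a log2 fold change of 1.99 (limma adjusted p = 0.000183). The lower gene was Cyp4a1, which was listed here although it encodes a microsomal hydroxylase and not a peroxisomal enzyme. Its log2 fold change was -0.75 (limma adjusted p = 0.0274), on a probe set whose name marks shared sequence. The 2 other probe sets of Cyp4a1 had values of 0.15 and -0.093 and did not pass (adjusted p = 0.510 and 0.867). Cyp4a1 did not pass without D3T replicate 1 or without vehicle replicate 1, 3 or 4 (adjusted p from 0.0513 to 0.0714). Abcd3, a transporter of the peroxisomal membrane and the brightest of that list, averaged 19427 ± 980 in D3T livers and 11948 ± 6157 in vehicle livers (adjusted p = 0.0642), and its second probe set passed as higher (log2 fold change 1.64, adjusted p = 0.0467). Vehicle replicate 2 read 21105 for Abcd3, and the other vehicle rats 7833 to 9779. Without it the log2 fold change was 1.13 and passed (adjusted p = 0.000488), against 0.82 with it, and Abcd3 also passed among the brightest 30% of probe sets (adjusted p = 0.0411). With the actin covariate, and likewise with no filter, Acaa1b was the only one of these list genes that passed.

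The arrays matched their labels in that Gstp1, Akr7a3 and Nqo1, enzymes known to be induced by dithiolethiones, were 29.9-fold, 16.5-fold and 3.44-fold higher in D3T livers. All 8 listed hepatocyte markers were measured, and their summed signal ran from 197850 to 265930 in D3T arrays and from 163050 to 238490 in vehicle arrays. Summed signals of other cells' markers did not overlap between the groups in places. The 3 erythroid markers summed to 10148 to 14031 in D3T arrays and 14724 to 20344 in vehicle arrays. The 4 lymphocyte markers summed to 522.9 to 573.8 in D3T arrays and 371.2 to 426.9 in vehicle arrays. None of the 3 erythroid and 2 lymphocyte markers that were tested passed in limma. The summed signals of the Kupffer cell, stellate, endothelial, cholangiocyte and adipocyte lists overlapped between the groups. Single markers passed in limma. The Kupffer cell and macrophage marker Cd14 was higher (log2 fold change 0.80, adjusted p = 0.0105), but the median of the 3 tested markers of its list was -0.48. The stellate cell marker Col3a1 was lower (-0.90, adjusted p = 0.0399), with a median of -0.38 over 2 tested markers. The hepatocyte marker Fgb was lower (-0.80, adjusted p = 0.0126), against a median of 0.083 over 8 tested markers. The part of these markers in the changes of the members was not tested.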

How the data were processed

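The deposited intensity values, 1 linear signal for each probe set on each of 8 arrays, were produced by the authors with MAS5, per the submitters' processing notes, and no version, scaling target, detection call or filter of that step could be taken from the labels. The 2% trimmed means of the deposited arrays were nearly equal, the lowest 500.9, and no pair of arrays shared more than 31 identical values. Intensities carry no counts, so precision rests on the number of arrays.

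Here every array was first scaled to a 2% trimmed mean of 500. The 20th percentile of all values (20.3) served as a floor before log2. Of 8799 probe sets, 59 controls were dropped, and the brightest 60% of the other 8740 by mean log2 signal, chosen blind to group, were tested (5244). D3T was compared with vehicle with lmFit and eBayes (intensity trend) of limma 3.58.1 under R 4.3.3, with Benjamini-Hochberg adjustment over all 5244 and a threshold of 0.05. Fold changes are ratios of geometric means, and means with SD are on the linear signal scale. Exact permutation tests were run in Python 3.11.15. Scripts were tested on simulated data.

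The platform's annotation gives 1 symbol to 7006 probe sets, several to 308 and none to 1426, and 6985 of the 7006 were found by identifier in RefSeq's GRCr8 table with no newer symbol. Start-site windows and coordinates are RefSeq's for GRCr8, with windows for 7 of the 9 members. Where a gene had several tested probe sets, the brightest represents it. Named genes are all members, every gene of the 6 lists past the threshold with the brightest gene of each list, and 3 genes known to respond to D3T. Also named are the 3 probe sets whose pattern over the arrays was most like the members' mean. The members, lists and markers were chosen with earlier results of these data known. Deviations of arrays with equal replicate numbers correlated at -0.20 to 0.063, so the numbers were not taken as pairs. The alternatives tried were no rescaling, quantile normalization, log2 of signal plus 16, no filter, the brightest 30%, a floor at the 40th percentile, no intensity trend, robust variance, the replicate number as a block, a covariate for the actin 3'/5' ratio, leaving out probe sets that mark shared sequence and leaving out each array.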

Additional observations from a re-analysis of the deposited data

Results flagged for a closer look

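In 2 of the member results a rat stood apart from the other 3 of its group, by a gap to the nearest rat that was most of the group's range. For Acadvl, D3T replicate 2 was above the other D3T rats (gap of 0.850 of the range) and vehicle replicate 2 was below the other vehicle rats (0.843). The Gapdh 3'/5' ratio of D3T replicate 3 was above those of the other D3T arrays (0.930). Chance flags about 1 in 20 such groups, and 54 groups were examined.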

How the results depend on the processing

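Acadvl, Acadl, Acadm and Acaa2 kept their direction under every alternative in which they were tested. The count of member probe sets passing was 3, and the same 3 passed without rescaling; Acadm passed too under log2 of signal plus 16, a floor at the 40th percentile, the brightest 30% of probe sets and robust variance, and in place of Acadvl under quantile normalization. With no filter, 309 of all probe sets passed, 1 of the members (Acaa2) and 1 gene of the 6 lists. With no intensity trend, 333 passed, 0 of the members (4 with an unadjusted p under 0.05) and 3 list genes. With the replicate block, 290 passed and 0 of the members (4 with an unadjusted p under 0.05). With the actin covariate, 35 passed, 0 of the members (1 with an unadjusted p under 0.05) and 1 list gene. Of those 35 calls 68.6% were higher after D3T, against 39.3% as reported. The cause of these losses was not tested. No share of all probe sets with an unadjusted p under 0.05 is given beside these counts. Leaving out 1 array gave 240 to 695 probe sets, 1 to 4 member probe sets and 3 to 10 list genes, against 560, 3 and 8, and the actin difference ran from -0.27 to -0.16. The sign turned for Acads under quantile normalization (0.040) and under the actin covariate for Cpt1a (0.025), Cpt2 (0.072), the brightest Hadha probe set (-0.041), Fabp1 (0.17) and Eci1 (0.34). Without 1 array, values ran from -0.18 to 0.042 for Cpt2, -0.14 to 0.031 for Acads, -0.041 to 0.10 and -0.12 to 0.033 for 2 Hadha probe sets and -0.27 to 0.11 for Eci1. The arrays give no depth, and 4 rats per group limit what could be seen.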

Other observations

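Over the 8 arrays, the probe sets most like the mean standardised log2 signal of the 9 members were both probe sets of Klf9, a transcription factor, at Pearson r = 0.932 and 0.907, and that of Snf8 at r = 0.918. They were picked as the closest of all tested probe sets, so these values describe likeness only. Klf9 had log2 fold changes of -0.47 and -0.27 and Snf8 of -0.063, and none passed in limma (adjusted p from 0.131 to 0.803). In the members' mean itself, the D3T replicates lay between -0.63 and -0.0020, vehicle replicates 2 and 3 at -0.27 and -0.33, and vehicle replicates 1 and 4 at 0.87 and 0.66.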
